A study of Mus musculus with 48 samples.

Results

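The EGR and NR4A genes encode transcription factors whose messenger RNA is made within minutes of neuronal activity, and the NAB genes encode corepressors that bind EGR proteins. The 9 genes described here are Egr1, Egr2, Egr3, Egr4, Nr4a1, Nr4a2, Nr4a3, Nab1 and Nab2. They were taken by symbol from a table of 23420 genes, and all 9 were among the 16716 genes that passed the filter on low counts. The choice was by name and applied no cutoff on measured values, but earlier results of these data were known when it was made. RNA came from punches of 3 mm from the striatum, the forebrain region that receives dopamine input, taken from both hemispheres and pooled within each mouse at about 50 days of age. The congenic mice (8, of which 4 males and 4 females) carry the segment that the labels call 112kb congenic, and the wild-type mice (8, of which 4 males and 4 females) are their C57BL/6J (B6) littermates. As background on this line, the segment is of DBA/2J origin and includes Hnrnph1 on chromosome 11, where none of the 9 genes lies. The labels name no drug treatment for these mice.

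As background, EGR proteins bind GC-rich sites through zinc fingers and switch on late-response genes. Egr1, the best studied, is a standard readout of recent neuronal firing, Egr2 also regulates hindbrain patterning and myelination, Egr3 is needed for muscle spindles, and Egr4 is a close relative also induced by neuronal activity. NR4A proteins are orphan nuclear receptors that act without a known ligand: Nr4a1 (Nur77) is abundant in striatal projection neurons and responds to dopamine signalling, Nr4a2 (Nurr1) is needed for midbrain dopamine neurons and is also made in deep cortical layers and the claustrum, and Nr4a3 (NOR-1) is an inducible relative of both. Nab1 is broadly and steadily made, whereas Nab2 is itself switched on by EGR proteins and then represses them. Induction of these genes runs largely through CREB, which binds the cAMP response element, and through serum response factor, which binds the CArG box.

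Of the 9 genes, 7 (all but Egr1 and Egr3) had at least 1 entry in the RefSeq promoter table (build GRCm38.p6), which gives 250 bases before and 50 bases after an annotated start. The stretch before the start is shown for 5 genes that had 1 entry each and that differ in the behaviour described below. Nr4a1, Nr4a3 and Egr4 varied together over the mice, Nab2 followed them more loosely, and Nr4a2 did not. Capitals mark TGACG, the core of the cAMP response element, on either strand (CGTCA on the strand shown), and each sequence reads 5′ to 3′ on the strand of its gene.
Nr4a1: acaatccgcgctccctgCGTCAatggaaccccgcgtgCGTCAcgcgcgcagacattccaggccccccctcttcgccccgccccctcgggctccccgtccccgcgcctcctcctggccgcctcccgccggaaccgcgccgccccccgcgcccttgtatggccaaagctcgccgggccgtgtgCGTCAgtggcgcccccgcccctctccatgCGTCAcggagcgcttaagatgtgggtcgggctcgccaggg
Nr4a3: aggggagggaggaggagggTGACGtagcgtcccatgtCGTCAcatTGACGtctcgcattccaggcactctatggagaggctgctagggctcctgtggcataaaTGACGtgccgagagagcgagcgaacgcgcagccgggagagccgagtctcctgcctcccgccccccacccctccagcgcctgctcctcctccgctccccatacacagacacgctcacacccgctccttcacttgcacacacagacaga
Egr4: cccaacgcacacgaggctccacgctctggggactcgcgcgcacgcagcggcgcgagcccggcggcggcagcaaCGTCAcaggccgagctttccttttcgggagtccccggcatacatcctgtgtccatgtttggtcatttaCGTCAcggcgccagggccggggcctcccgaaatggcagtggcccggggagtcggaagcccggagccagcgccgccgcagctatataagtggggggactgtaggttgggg
Nr4a2: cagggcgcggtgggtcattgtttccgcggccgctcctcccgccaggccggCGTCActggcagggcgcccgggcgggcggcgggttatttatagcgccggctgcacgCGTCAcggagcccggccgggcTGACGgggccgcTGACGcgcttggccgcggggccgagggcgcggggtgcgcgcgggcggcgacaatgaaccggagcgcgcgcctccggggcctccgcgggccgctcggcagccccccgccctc
Nab2: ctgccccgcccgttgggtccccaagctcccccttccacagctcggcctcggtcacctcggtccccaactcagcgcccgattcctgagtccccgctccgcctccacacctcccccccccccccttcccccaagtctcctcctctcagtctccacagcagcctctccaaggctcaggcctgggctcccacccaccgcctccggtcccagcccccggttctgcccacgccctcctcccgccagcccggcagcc

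These stretches lie at chr15:101266596-101266845 (plus strand), chr4:48045055-48045304 (plus strand), chr6:85513590-85513839 (minus strand), chr2:57124004-57124253 (minus strand) and chr10:127666704-127666953 (minus strand) on GRCm38.p6. In the whole window, the core was found 4 times in each of Nr4a1, Nr4a3 and Nr4a2, 2 times in Egr4, 1 time in Nab1, 0 times in Nab2, and 0 or 2 times at the 5 starts of Egr2. Among all 32851 promoters of that length in the table, 20.8% held the core at least once, 5.01% at least 2 times and 0.231% at least 4 times. Nr4a2 thus held as many cores as Nr4a1 and Nr4a3. The whole palindrome TGACGTCA, which holds the core on both strands and was found in 1.79% of all promoters, was in none of the windows of the 7 genes. Of the EGR sites, GCGTGGGCG occurred 2 times in Nab1 (0.612% of all promoters held it), and GCGGGGGCG occurred 1 time each in Nab1 and Nr4a1 (2.91% of all promoters). The NR4A site AAAGGTCA (1.51% of all promoters) was in none of them, and the CArG box (1.63% of all promoters) was found at 4 of the 5 listed starts of Egr2 and at no start of the other 6 genes. The Egr2 windows that begin at 67537619, 67537620 and 67537680 largely overlap, so their matches can be the same letters. All these matches are letters in a window and were not set against binding data.

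Each library was sequenced on 3 lanes, and the counts of the lanes were summed, giving 73.1 to 82.0 M gene counts per mouse. Levels are in CPM, the counts of a gene scaled to the library total with TMM factors. The labels and 1 library disagreed: Xist, the RNA of the inactive X chromosome, stood at 2.73 CPM in the library labelled wild-type female Sample_4806, against 958 to 1535 CPM in the other 7 females and 1.32 to 17.3 CPM in the males. Sex is taken from the labels throughout, and the tests by sex were also run without that library. For DESeq2, the gene lists and the exon bins this setting was chosen after seeing the data. The sexes also differ in the numbers of the mice, since only females Sample_4676 and Sample_4677 were numbered among the males, so sex cannot be told apart here from what goes with that numbering. Striatal identity held in every library: all 14 markers of projection neurons were detected in each mouse, with a summed level of 10730 to 13330 CPM. Because RNA came from whole tissue, fewer cells of a type and less RNA per cell cannot be told apart.

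Per kilobase of annotated exon, Egr1 stood highest of the 9 genes with a mean of 81.8 CPM per kb, followed by Egr3 with 58.3, Nr4a1 with 32.8, Nab2 with 19.6 and Egr4 with 18.1 CPM per kb. Nab1 had 5.41, Egr2 3.54, Nr4a2 3.21 and Nr4a3 0.872 CPM per kb. The order of neighbours such as Nab2 and Egr4, or Egr2 and Nr4a2, lies within the spread between mice given next. The lengths come from GENCODE on NCBIM37 (mm9), where the model of Egr3 spans only 1469 bases of exon. For Egr1 that model (3100 bases) gave 5 exon bins where 6 were deposited, so its length may differ from that of the counted model. Counts behind these levels were ample for most genes: the lowest mouse had 9159 counts for Egr1 and 1670 for Nr4a1, but 151 for Egr2 and 131 for Nr4a3.

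Between mice that share a genotype and a sex, Egr1, Egr2, Egr4 and the NR4A genes differed widely, and Egr3 and the corepressors far less. The SD of log2 levels within genotype and sex was 0.883 for Egr2, 0.826 for Nr4a2, 0.757 for Nr4a1, 0.755 for Nr4a3, 0.498 for Egr4 and 0.48 for Egr1, beside 0.202 for Egr3, 0.163 for Nab1 and 0.117 for Nab2. Over all 16 mice, where the difference between the sexes adds to the spread, Egr2 had the widest range of CPM, 13.5 times between the lowest and the highest mouse, followed by Nr4a1 with 9.38 times, Nr4a2 with 8.89 times, Nr4a3 with 6.50 times, Egr4 with 4.78 times and Egr1 with 3.53 times. Egr3 ranged over 2.09 times, Nab1 over 1.53 times and Nab2 over 1.46 times. The coefficient of variation (CV) over the 16 mice was 70.5% for Nr4a1 and 68.5% for Egr2, against 12.7% for Nab2 and 10.7% for Nab1. Lanes of the same mouse agreed far more closely, with a median CV over the 3 lanes of 1.87% for Nr4a1, 6.23% for Egr2 and 13.2% for Nr4a3. The biological CV that edgeR estimated beyond counting error, with sex and genotype in the model, placed Egr2 and Nr4a2 at percentile 99.4 of the 16716 genes, Nr4a3 at 99.2, Nr4a1 at 98.8, Egr4 at 95.2 and Egr1 at 94.0. Egr3 stood at percentile 68.9, Nab1 at 59.7 and Nab2 at 39.1. Beside the genes closest to each in mean level, the 4 EGR and 3 NR4A genes all lay at percentile 97.4 or above, with Egr3 the lowest of them, whereas Nab1 lay at 88.8 and Nab2 at 72.7.

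A few mice stood at the ends of the range for many genes. Wild-type male Sample_4734 had the highest level of Egr1 (411 CPM), Egr2 (26.0 CPM), Egr4 (71.3 CPM), Nr4a1 (199.0 CPM), Nr4a2 (28.3 CPM) and Nab2 (69.3 CPM). The library labelled wild-type female Sample_4806 had the lowest level of Egr1 (116 CPM), Egr2 (1.92 CPM), Egr3 (52.5 CPM), Egr4 (14.9 CPM), Nr4a1 (21.2 CPM) and Nab2 (47.5 CPM), and the highest of Nab1 (26.3 CPM). Among the 8 males, wild-type male Sample_4712 was lowest for every gene except Nr4a2, with 155 CPM of Egr1, 3.64 CPM of Egr2, 29.4 CPM of Nr4a1 and 1.76 CPM of Nr4a3. Its levels of these 4 genes lay within or below the range of the females.

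**Figure D1:**
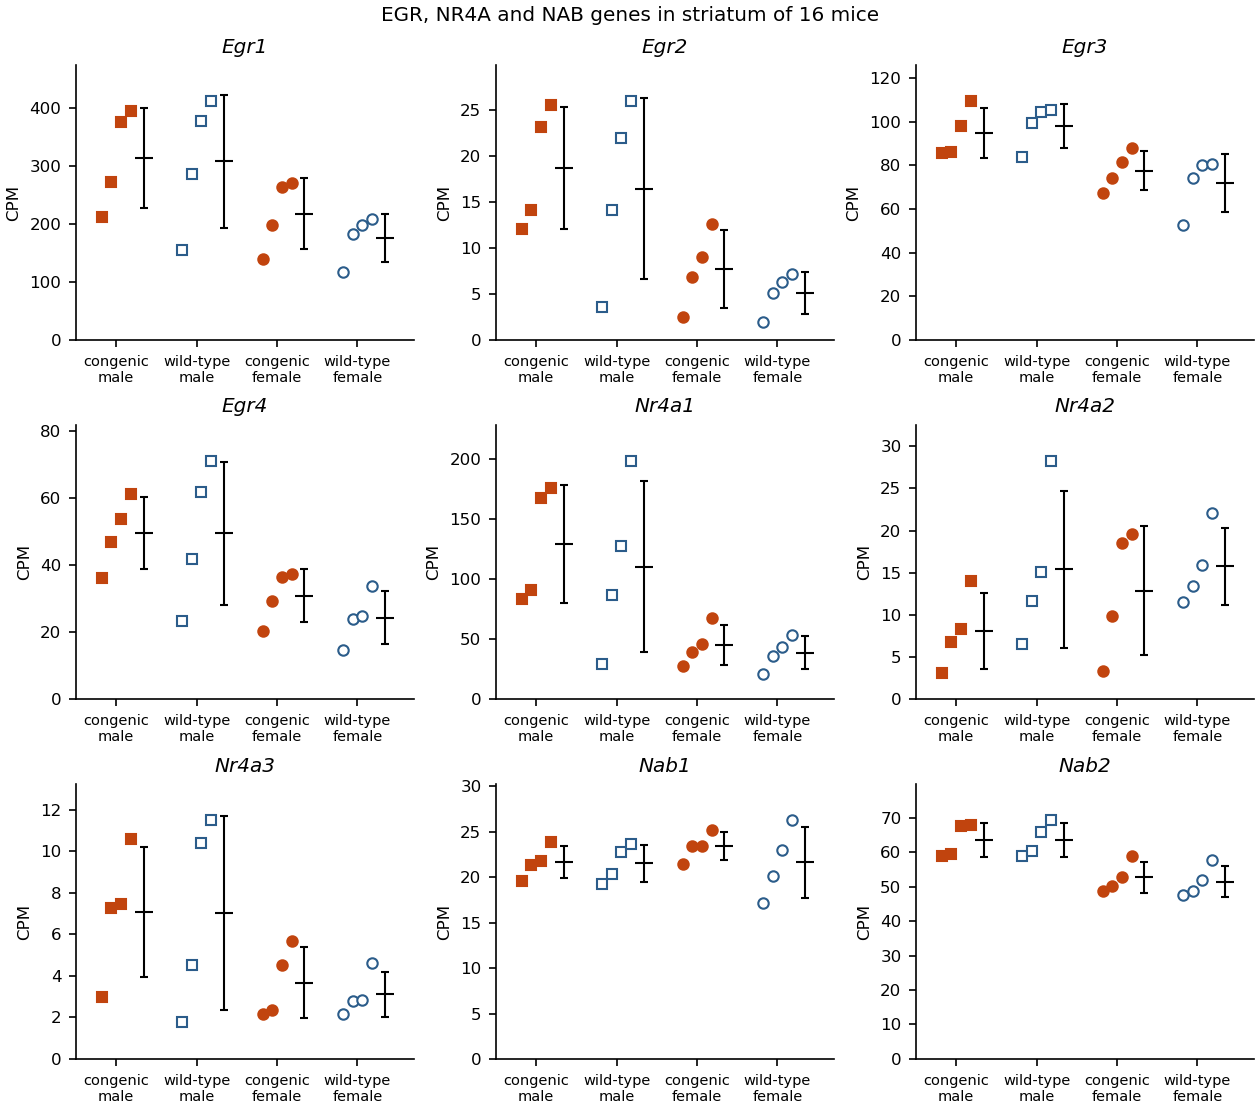
CPM (linear axis from 0) of the 9 genes in each of the 16 mice, by genotype and sex; each point is a mouse, and the bar beside it is the mean ± SD of the 4 mice. Males lie above most females for Egr1, Egr2, Egr3, Egr4, Nr4a1, Nr4a3 and Nab2, the genotypes overlap for every gene, and Nr4a1 runs between 21.2 and 199.0 CPM.

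The comparison of genotypes asks whether the congenic segment alters these genes. No member differed between congenic and wild-type mice beyond the spread between mice. By edgeR's quasi-likelihood test with sex in the model and Benjamini-Hochberg adjustment over 16716 genes, 0 of the 9 were called, where 0% of all genes were called, and DESeq2 and limma-voom also called 0 genes. At an unadjusted p under 0.05 there were 0 of the 9, against 256 of all genes (1.53%). The median log2 fold change, congenic over wild-type, was 0.17 over the 4 EGR genes, 0.12 over the 3 NR4A genes and 0.04 over the 2 NAB genes, beside 0.00 over all genes. The ranges of the genotypes overlapped for all 9 genes, and for all genes tested (0% did not overlap).

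Egr1 (chromosome 18, 35020861 to 35024638, plus strand, NCBIM37) had 140, 266 and 394 CPM as the lowest, median and highest of the 8 congenic mice, against 116, 203 and 411 CPM in the 8 wild-type mice. Its own log2 fold change was 0.17 with a 95% interval of -0.31 to 0.64 (edgeR adjusted p = 0.999). Egr2 (chromosome 10, 66998223 to 67004936, plus strand) averaged 13.3 ± 7.83 CPM in the congenic group, against 10.8 ± 8.97 CPM in the wild-type group (SD, n = 8 each), with an interval of -0.49 to 1.26 on the log2 scale. Changes of either sign within these wide intervals were not detectable with 8 mice a group. Egr3 (chromosome 14, 70477252 to 70479964, plus strand) averaged 86.2 ± 13.2 CPM in the congenic group, against 85.0 ± 17.8 CPM in the wild-type group, and its interval was far narrower, -0.15 to 0.22. Egr4 (chromosome 6, 85461125 to 85463583, minus strand) averaged 40.3 ± 13.2 CPM in the congenic group, against 37.1 ± 20.1 CPM in the wild-type group, with an interval of -0.34 to 0.67.

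Among the nuclear receptors, Nr4a1 (chromosome 15, 101097277 to 101105223, plus strand, NCBIM37) averaged 87.5 ± 56.5 CPM in the congenic group, against 74.8 ± 61.2 CPM in the wild-type group (SD, n = 8 each), with a log2 fold change of 0.23 and an interval of -0.51 to 0.96. Nr4a3 (chromosome 4, 48058025 to 48099319, plus strand) averaged 5.38 ± 2.96 CPM in the congenic group, against 5.07 ± 3.76 CPM in the wild-type group, with an interval of -0.68 to 0.92. Nr4a2 (chromosome 2, 56959241 to 56976414, minus strand) was the only one of the 9 with a negative estimate. It stood at 3.19, 6.75, 8.38 and 14.0 CPM in congenic males and 3.43, 9.88, 18.5 and 19.6 CPM in congenic females, against 6.55, 11.7, 15.1 and 28.3 CPM in wild-type males and 11.6, 13.5, 15.9 and 22.1 CPM in wild-type females. The genotypes overlapped, with 2 of 8 congenic mice above the wild-type median, and the log2 fold change of -0.61 (SE 0.40, interval -1.47 to 0.25) did not pass the test (edgeR adjusted p = 0.999).

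Markers of cortical excitatory neurons lay on the same side as Nr4a2. Of 12 such markers, all detected in the table, 1 had a positive estimate for congenic over wild-type, and the median of their log2 fold changes was -0.38, against 0.00 over all genes. Their summed level ran between 87.0 and 390 CPM with a median of 152 CPM in congenic mice, and between 144 and 345 CPM with a median of 278 CPM in wild-type mice. Slc17a7, which loads glutamate into vesicles of cortical neurons, ranged over 20.9 to 192 CPM, and Neurod1 over 0 to 0.416 CPM. With the score of these markers as a covariate, the Nr4a2 estimate for genotype was -0.15 (edgeR adjusted p = 1). The part of cortical tissue in the Nr4a2 values was not tested beyond this.

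The corepressors had the tightest intervals. Nab1 (chromosome 1, 52514138 to 52557523, minus strand, NCBIM37) averaged 22.5 ± 1.80 CPM in the congenic group, against 21.6 ± 2.89 CPM in the wild-type group (SD, n = 8 each), with a log2 interval of -0.09 to 0.21. Nab2 (chromosome 10, 127097974 to 127105624, minus strand) averaged 58.1 ± 7.30 CPM in the congenic group, against 57.5 ± 7.84 CPM in the wild-type group, with an interval of -0.09 to 0.13. The genotype effect was not found to differ between the sexes for any of the 9 genes: 0 were called for the interaction (0% of all genes; 0 genes also by DESeq2 and limma-voom), and 0 had an unadjusted p under 0.05, where 4.18% of all genes did. Within females alone and within males alone, 0 of the 9 had an unadjusted p under 0.05 as well, beside 2.19% and 2.94% of all genes.

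**Figure D2:**
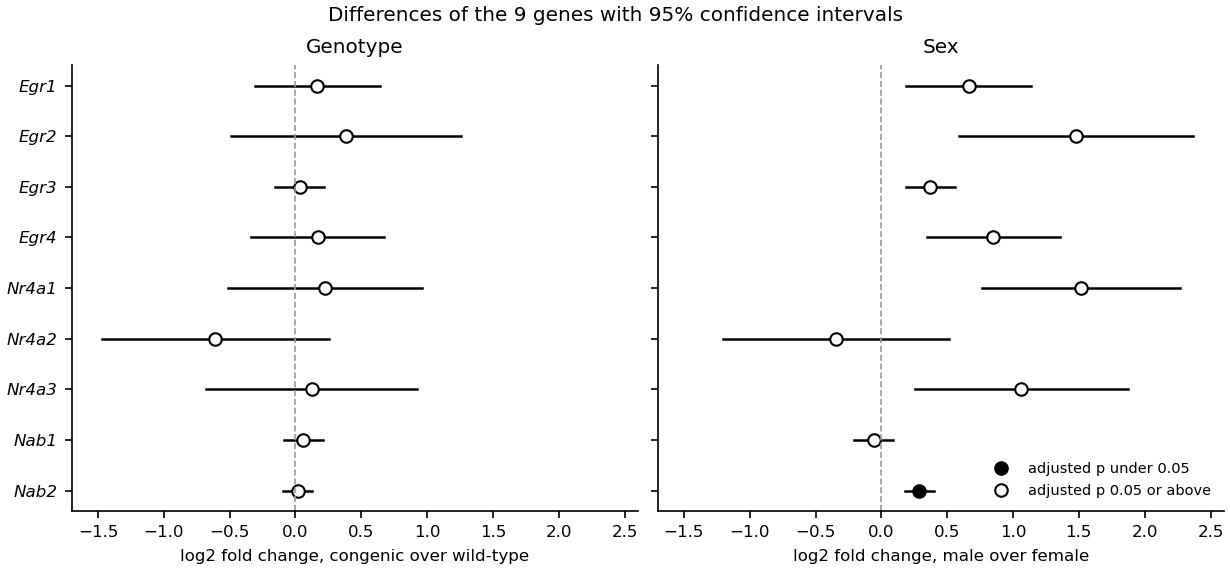
log2 fold changes (points) with 95% confidence intervals (lines) from edgeR for congenic over wild-type mice on the left and males over females on the right, over 16 mice; filled points passed an adjusted p of 0.05. All 9 genotype intervals span 0, whereas 7 of the 9 sex intervals lie above 0 and that of Nab2 (0.18 to 0.40) passed the test.

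By sex, 7 of the 9 genes had higher means in males, and 1 of them, Nab2, passed the test. Nab2 rose in males, with a log2 fold change, male over female, of 0.29 (SE 0.05, interval 0.18 to 0.40; edgeR adjusted p = 0.0294). It was 1 of 23 genes called by sex (0.138% of all genes), of which 13 were higher in males (0.0778%), and the count of 23 ran between 12 and 76 with 1 mouse left out. Without the library labelled female Sample_4806 it was 15 (0.0893%), with 0 of the 9 genes among them. At an unadjusted p under 0.05, Egr1, Egr2, Egr3, Egr4, Nr4a1, Nr4a3 and Nab2 were all higher in males, 7 of the 9 genes, where 2464 of all genes (14.7%) passed that level and 1294 (7.74%) were higher in males. Without Sample_4806 the same 7 passed that level, where 10.9% of all genes did and 5.45% were higher in males. DESeq2's Wald test called 5 members, Nr4a1, Egr2, Egr3, Egr4 and Nab2, and 259 of the 15092 genes to which it gave an adjusted p (1.72%). Without Sample_4806 it called 3 members, Nab2, Nr4a1 and Egr3 (DESeq2 adjusted p = 0.00211, 0.00504 and 0.00521), and 105 of 15823 genes (0.664%). The median log2 fold change, male over female, was 0.76 over the 4 EGR genes, 1.06 over the 3 NR4A genes and 0.11 over the 2 NAB genes, beside -0.01 over all genes. Without Sample_4806 the estimates of the 7 genes were 0.27 for Nab2, 0.30 for Egr3, 0.58 for Egr1, 0.75 for Egr4, 0.99 for Nr4a3, 1.33 for Egr2 and 1.42 for Nr4a1, all in the same direction as with it.

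Nab2 stood at 59.0, 59.4, 67.6 and 68.0 CPM in congenic males and 58.9, 60.2, 65.8 and 69.3 CPM in wild-type males, against 48.7, 50.1, 52.8 and 59.0 CPM in congenic females and 47.5, 48.7, 51.8 and 57.7 CPM in wild-type females. Among wild-type mice the sexes did not overlap, and among congenic mice 1 female reached the lowest males. Over all 16 mice, 6 of 8 males lay above every female. The call did not hold in 8 of the 16 edgeR fits that left out 1 mouse, where adjusted p was 0.0543 to 0.0953. These were the fits without congenic mice Sample_4677, Sample_4804 and Sample_4731 and without wild-type mice Sample_4738, Sample_4753, Sample_4806, Sample_4672 and Sample_4734. For Sample_4806 that p was 0.0815. The call was also lost without mice Sample_4804 and Sample_4806 (0.26, edgeR adjusted p = 0.197) and in lane 4 alone (0.25, edgeR adjusted p = 0.135). Every one of these estimates kept its direction.

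Nr4a1 had an estimate for sex of 1.52 on the log2 scale (SE 0.35, interval 0.77 to 2.27; edgeR adjusted p = 0.127), close to that of Egr2 and within its error. By limma-voom the estimate was 1.40 for Nr4a1 and 1.47 for Egr2. Nr4a1 stood at 83.8, 91.1, 168 and 176 CPM in congenic males and 29.4, 87.0, 128 and 199.0 CPM in wild-type males, against 27.5, 39.4, 46.3 and 67.8 CPM in congenic females and 21.2, 36.4, 43.9 and 53.7 CPM in wild-type females. The sexes did not overlap among congenic mice, as for 2.47% of all genes, and among wild-type mice only male Sample_4712 lay within the females. Without male Sample_4712 the estimate was 1.66 and passed the test (edgeR adjusted p = 0.026). Nr4a3 had 1.76, 7.38 and 11.5 CPM as the lowest, median and highest of the 8 males, against 2.15, 2.82 and 5.70 CPM in the 8 females, with a log2 fold change of 1.06 (SE 0.38, edgeR adjusted p = 0.235). Nr4a2 did not share this direction, at 11.7 ± 7.82 CPM in males and 14.3 ± 6.04 CPM in females (SD, n = 8 each), with an interval of -1.21 to 0.52.

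All 4 EGR genes had higher means in males, with none past the test. Egr3 stood at 83.6, 98.8 and 109 CPM as the lowest, median and highest of the 8 males, against 52.5, 77.0 and 87.7 CPM in the 8 females, and 7 of the 8 females lay below every male. Its log2 fold change was 0.37 (SE 0.09, edgeR adjusted p = 0.112), and among wild-type mice the sexes did not overlap for Egr3 and Nab2, as for 8.88% of all genes. Egr2 had 3.64, 18.1 and 26.0 CPM in males, against 1.92, 6.56 and 12.6 CPM in females, with a log2 fold change of 1.48 (SE 0.41, edgeR adjusted p = 0.166). Egr4 averaged 49.7 ± 15.6 CPM in males and 27.7 ± 8.06 CPM in females (SD, n = 8 each), with an interval of 0.35 to 1.36. Egr1 averaged 310 ± 94.0 CPM in males and 197 ± 53.2 CPM in females, with an interval of 0.19 to 1.14. Over all mice the sexes overlapped for all 9 genes, whereas 0.114% of all genes did not overlap, and the overlap of the 9 genes remained when the library labelled Sample_4806 was left out, where 0.173% of all genes did not.

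Nab1 averaged 21.6 ± 1.76 CPM in males and 22.5 ± 2.91 CPM in females (SD, n = 8 each), with a log2 interval of -0.21 to 0.09. Marker lists of 7 cell types were set beside these values. All 14 projection neuron markers had positive estimates for males over females, with a median log2 fold change of 0.10 and a summed level of 11600 to 13330 CPM in males and 10730 to 12720 CPM in females. Of 12 cortical markers 0 had a positive estimate, with a median of -0.62 and summed levels of 87.0 to 345 CPM in males and 107 to 390 CPM in females. Of 6 microglia markers 5 had positive estimates, with a median of 0.13 and summed levels of 318 to 362 CPM in males and 284 to 330 CPM in females. All 5 endothelial markers had positive estimates, with a median of 0.135 and summed levels of 172 to 236 CPM in males and 177 to 213.5 CPM in females. Of 5 oligodendrocyte markers 1 had a positive estimate (median -0.11; 7632 to 10370 CPM in males and 6877 to 11090 CPM in females). Of 5 astrocyte markers 3 did (median 0.01; 1620 to 1896 CPM in males and 1597 to 1883 CPM in females), and of 4 dopamine neuron markers 2 did (median -0.10; 21.5 to 26.4 CPM in males and 22.4 to 25.4 CPM in females). No marker of these lists was called by sex. At an unadjusted p under 0.05, 6 of 14 projection neuron, 4 of 6 microglia and 1 of 5 endothelial markers were higher in males. Of all genes, 7.74% were. Without Sample_4806 it was 4, 1 and 0 markers, beside 5.45% of all genes. At that level 1 cortical and 1 oligodendrocyte marker were lower in males (1 and 0 without Sample_4806), beside 7% of all genes. Of the astrocyte and dopamine neuron markers 0 passed. Without Sample_4806 the medians were 0.08 for projection neurons, -0.62 for cortical neurons, 0.11 for microglia, 0.10 for endothelium, -0.07 for oligodendrocytes, 0.00 for astrocytes and -0.08 for dopamine neurons. The part of these cell types in the sex differences was not tested, except that with the cortical score as a covariate the estimates were 1.57 for Nr4a1 and 0.33 for Nab2 (edgeR adjusted p = 0.336 and 0.0261), and that of Nr4a2 turned to 0.36.

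Genes known to respond to the same signals were set beside the members. Of 7 AP-1 genes, which encode the Fos and Jun partners induced with Egr1, 0 were called by sex and 5 were higher in males at an unadjusted p under 0.05, beside the 7.74% of all genes, with a median log2 fold change of 0.54 (4 and 0.45 without Sample_4806). The smallest p values were those of Fosl2 (1.06, SE 0.31), Junb (0.83, SE 0.25) and Fosb (0.54, SE 0.17). Of 9 genes of feedback on MAP kinase, 2 were called, both higher in males: Spry2 (0.39, SE 0.07, edgeR adjusted p = 0.0151) and Spry4 (0.58, SE 0.11, edgeR adjusted p = 0.0457), inhibitors of receptor signalling to ERK. Dusp5, a nuclear phosphatase of ERK, had 0.73 (SE 0.16, edgeR adjusted p = 0.0989), and 7 of the 9 passed the unadjusted level in the direction of males. Without Sample_4806, Spry2 stayed called (0.37, edgeR adjusted p = 0.0492), Spry4 did not (0.53, edgeR adjusted p = 0.105), and 6 of the 9 passed the unadjusted level.

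Of 30 activity-induced effector genes, 0 were called by sex, 14 were higher and 1 was lower in males at an unadjusted p under 0.05 (11 and 1 without Sample_4806), beside 7.74% of all genes that were higher, with a median log2 fold change of 0.20. The leading ones were Tiparp (0.60, SE 0.13), Trib1 (0.48, SE 0.12) and the clock gene Per1 (0.67, SE 0.15). Of 20 upstream kinases and factors, 4 passed that level, a share of 20% that lies near the 14.7% of all genes in either direction. All 4 were higher in males, where 7.74% of all genes were. They were led by Srf (0.28, SE 0.06, edgeR adjusted p = 0.0587), which encodes serum response factor itself, then Mapk3 (0.14, SE 0.05), the kinase ERK1, and Crtc1 (0.11, SE 0.04), a coactivator of CREB, with a list median of 0.06, and 3 of the 20 passed without Sample_4806. The 3 retinoid X receptors, partners of Nr4a1 and Nr4a2, had estimates of 0.11 for Rxra, 0.12 for Rxrg and 0.05 for Rxrb. Rxra and Rxrg passed the unadjusted level, both higher in males, beside 7.74% of all genes that were higher, and Rxra alone passed without Sample_4806. Of 9 subunits of the NuRD complex, which NAB proteins recruit through CHD4, 3 passed the unadjusted level, Mbd3 (0.17, SE 0.05), Chd3 (0.12, SE 0.04) and Mta1 (0.09, SE 0.04), all higher in males. That is 33.3% of the list, beside 14.7% of all genes, and without Sample_4806 it was 2 genes, Mbd3 and Chd3. By genotype, 0 genes of any of these 6 lists were called, and 2 of the 30 effectors (6.67%) passed the unadjusted level, beside 1.53% of all genes. Atf3 (0.36, SE 0.15) was higher and Ptgs2 (-0.26, SE 0.12) lower in congenic mice. The genes of smallest p for genotype that did not reach that level were Bdnf among the effectors (-0.53, SE 0.36), Jun (-0.10), Fosl1 (0.32) and Jund (-0.03) in AP-1, Spry2 (0.09), Spry4 (0.15) and Spry1 (0.06) in MAP kinase feedback, and Elk3 (-0.07), Crem (0.07) and Srf (0.06) upstream. In the last lists they were Rbbp7 (0.05), Mta1 (-0.04) and Chd4 (-0.05) of NuRD, with Rxra, Rxrb and Rxrg between 0.00 and 0.02.

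Over the 16 mice, 6 of the members formed a tight block. All 15 pairs among Egr1, Egr2, Egr3, Egr4, Nr4a1 and Nr4a3 were positively correlated on the log2(CPM + 0.5) scale, with Pearson r of 0.692 to 0.975 and Spearman rho of 0.691 to 0.982 (permutation test of 100000 resamples, adjusted over all 36 pairs of members, p = 6e-05 to 0.004 for r). The closest pair was Egr1 and Egr4 (r = 0.975, rho = 0.982, permutation adjusted p = 6e-05 for both, from the smallest p that 100000 resamples can give). Nr4a1 followed Egr2 with r = 0.971 and Egr1 with r = 0.948. The loosest was Egr3 with Nr4a3 (r = 0.692, rho = 0.691).

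These relations held within each sex to different degrees. Egr1 and Egr4 had r = 0.969 in the 8 males and 0.962 in the 8 females, and Egr2 and Nr4a1 had r = 0.988 in males and 0.946 in females. Egr3 and Nr4a3 had r = 0.613 in males and 0.563 in females, neither past the threshold (exact permutation p = 0.105 and 0.136). Over the 15 pairs, r ran between 0.613 and 0.988 in males and between 0.563 and 0.980 in females. An adjusted exact permutation p of 0.05 was passed by 10 of the 15 in males and 6 of the 15 in females. No pair of Egr3 passed it in either sex (exact permutation adjusted p = 0.0605 to 0.172 in males and 0.192 to 0.306 in females). No pair of Nr4a3 passed it in females. In females, most pairs of Egr3 were far weaker without the library labelled Sample_4806. Their r was then 0.011 with Egr2, 0.046 with Egr4, 0.067 with Egr1, 0.307 with Nr4a1 and 0.472 with Nr4a3, whereas the other 10 pairs had r of 0.541 (Egr4 and Nr4a3) to 0.964 (Egr1 and Egr2) in the 7 remaining females. Over the 15 remaining mice of both sexes, r of the 15 pairs ran between 0.696 and 0.968. Leaving out, for each pair, the 2 mice farthest from the median of the gene named first gave r of 0.684 to 0.973. With values centred within each genotype and sex, Egr3 with Nr4a3 missed the threshold (r = 0.535, permutation adjusted p = 0.0629), and the other pairs of the block stayed past it.

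**Figure D3:**
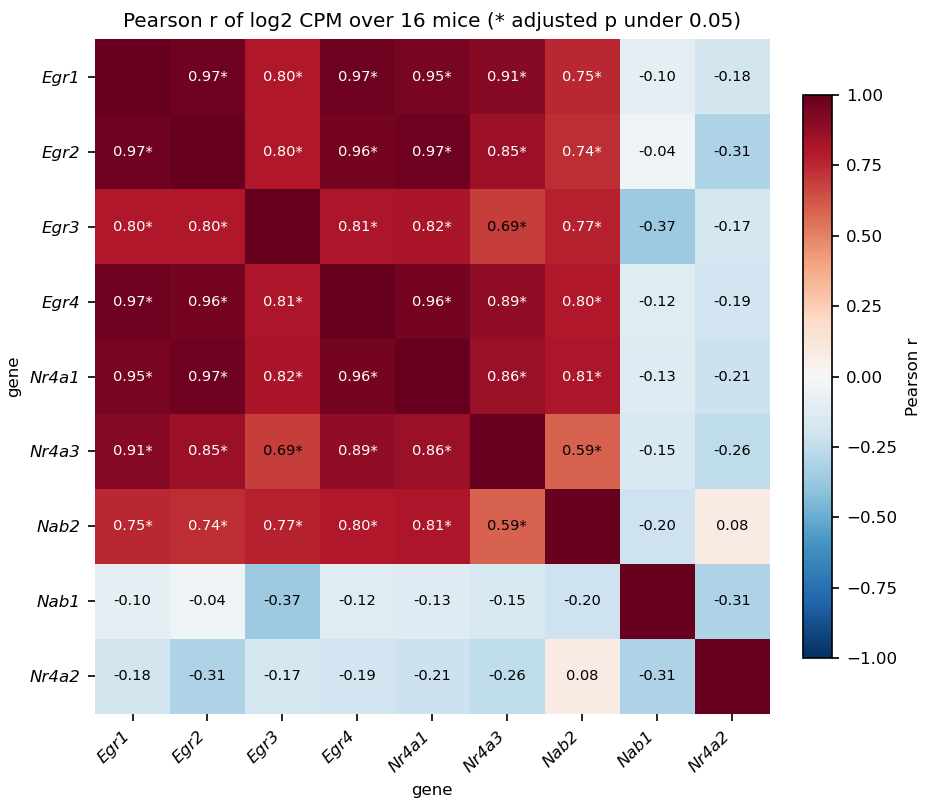
Pearson r of log2(CPM + 0.5) between each pair of the 9 genes over 16 mice, on a colour scale of -1 to 1; an asterisk marks a permutation p under 0.05 after adjustment over 36 pairs. Egr1, Egr2, Egr3, Egr4, Nr4a1 and Nr4a3 form a block of 15 marked pairs (0.692 to 0.975), Nab2 joins it with 6 more (0.590 to 0.806), and the rows of Nab1 and Nr4a2 hold none.

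The corepressors parted from each other. Nab2 correlated with all 6 genes of the block, with r of 0.590 (Nr4a3) to 0.806 (Nr4a1; rho = 0.838, permutation adjusted p = 0.000675 for r), whereas Nab1 correlated with none of the other 8 (r between -0.367 and -0.042). The relation of Nab2 was weaker within each sex. Within the 8 males its r with the block ran between 0.521 and 0.728, within the 8 females between 0.035 and 0.558 (-0.175 to 0.379 without Sample_4806), and no pair passed the adjusted exact permutation test in either sex. For Nr4a1 and Nab2, r was 0.728 in males and 0.351 in females (0.067 without the library labelled Sample_4806). With values centred within each genotype and sex, 5 of the 6 pairs of Nab2 missed the threshold, Nr4a1 with r = 0.561 (permutation adjusted p = 0.0504). Egr4 alone stayed past it, by a permutation whose p runs too small for centred values.

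Nr4a2 stood outside the block. Its r with the other 8 members ran between -0.310 and 0.084, and none passed the test over 16 mice (permutation adjusted p = 0.372 to 0.779), although Nr4a1 and Nr4a3 encode its closest relatives. In the 8 females Nr4a2 and Nr4a3 were inversely related (r = -0.816, rho = -0.667, exact permutation p adjusted over 36 pairs = 0.0302 for r). Without the library labelled Sample_4806 their r in females was -0.875, and in the 8 males it was 0.144. The score of 12 cortical excitatory neuron markers, their centred mean log2 CPM, did follow Nr4a2, with r = 0.901 and rho = 0.885 (permutation adjusted p = 0.00072 over 72 relations of members and marker lists). That relation was singled out after its value was seen. Within each sex r was 0.931 in males and 0.915 in females (0.941 without Sample_4806), with rho of 0.905 in males and 0.619 in females. Neither passed within a sex (exact permutation p adjusted over 72 relations = 0.0786 and 0.102). Over all mice but Sample_4739 and Sample_4673, r was 0.847. Nr4a3 had r = -0.895 with the cortical score in females and 0.355 in males (exact permutation adjusted p = 0.102 and 0.712). The part of that score in the inverse relation of Nr4a2 and Nr4a3 was not tested. Of the 4 markers of dopamine neurons, the cells for which Nr4a2 is best known, the dopamine transporter gene Slc6a3 held 3 to 28 counts per mouse (0.0393 to 0.356 CPM), and the summed level of all 4 ran between 21.5 and 26.4 CPM.

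**Figure D4:**
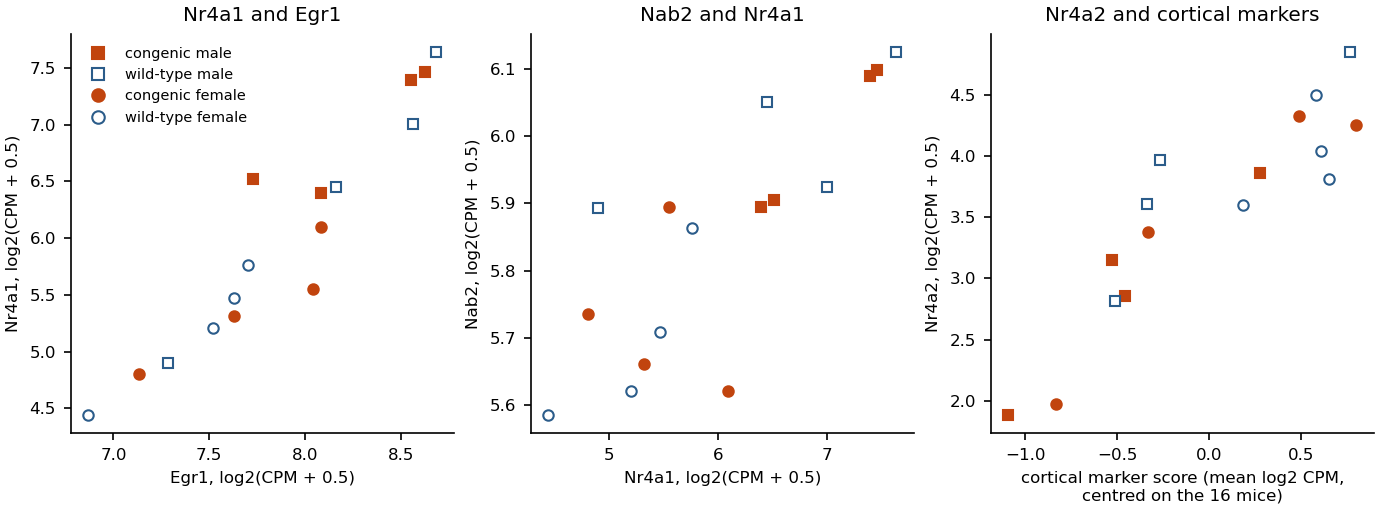
Each point is 1 of 16 mice; axes are log2(CPM + 0.5), except the horizontal axis on the right, which is the centred mean log2 CPM of 12 cortical markers. Nr4a1 rises with Egr1 in both sexes (r = 0.948), Nab2 with Nr4a1 (r = 0.806, with 0.728 in males and 0.351 in females), and Nr4a2 with the cortical score (r = 0.901).

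Of the other relations between members and marker lists, 2 passed the adjusted test on Pearson r, Egr3 with projection neuron markers (r = 0.777, permutation adjusted p = 0.0112) and Nab1 with oligodendrocyte markers (r = 0.720, permutation adjusted p = 0.0403). Neither passed on Spearman rho (0.679 and 0.659, permutation adjusted p = 0.115 and 0.132). In the 8 males r was 0.408 for Egr3 and 0.324 for Nab1, and in the 8 females it was 0.731 and 0.877 (0.664 and 0.863 without Sample_4806), with none past the adjusted exact permutation test within a sex. The scores of the AP-1, MAP kinase feedback and effector lists each correlated over the 16 mice with the 6 genes of the block and with Nab2, and with neither Nab1 nor Nr4a2. For AP-1, r was 0.960 with Nr4a1 and 0.946 with Egr1, 0.689 with Nab2 and -0.204 with Nr4a2 (permutation adjusted p = 4.15e-05, 4.15e-05, 0.00806 and 0.495 over 54 relations). Within each sex the relation of AP-1 differed by gene. For Nr4a1 it was 0.969 in males and 0.930 in females (0.896 without Sample_4806), both past the adjusted exact permutation test. For Egr3 it was 0.782 in males and 0.517 in females (0.025 without Sample_4806), and for Nab2 0.664 in males and 0.178 in females. In females, Nab2 had r of 0.016 with MAP kinase feedback and 0.435 with the effectors, none past the test, and in males it had 0.705 and 0.846, of which only that with the effectors passed (exact permutation adjusted p = 0.0306). The lists of upstream regulators, retinoid X receptors and NuRD subunits passed with those 7 genes on Pearson r over the 16 mice. On Spearman rho, Egr2, Nr4a1 and Nr4a3 with the retinoid X receptors and Egr4 with the upstream list missed the threshold (permutation adjusted p = 0.0681, 0.073, 0.132 and 0.0644). With the retinoid X receptors and the NuRD subunits, r in males lay between -0.344 and 0.205. Of the relations of these 3 lists with the 7 genes, those of the upstream list with Egr3 and Nab2 in males passed within a sex (exact permutation adjusted p = 0.0306 and 0.0369), and none did in females.

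Among 14084 genes with a mean of at least 1 CPM, those most like Egr1 over the 16 mice were Gpr3, an orphan receptor that raises cAMP (r = 0.973), Dusp6, a phosphatase of ERK (0.958), Midn (0.948), Slc25a25, a mitochondrial carrier (0.943), and Fosb (0.939). Nr4a1 shared the first 2 of these, Gpr3 (r = 0.975) and Dusp6 (0.966), followed by Dusp5 (0.960), Tiparp (0.957) and Junb (0.953). Gpr3 ranged over 1.70 to 9.09 CPM, and its r with Egr1 was again 0.973 once values were centred within each genotype and sex. Nab2 was most like Gcc1, a Golgi protein gene (r = 0.916, and 0.951 after centring), Irf2bpl (0.900), Spry2 (0.886), Spata2l (0.882) and Mogs (0.882). For Nr4a2, added after its values were seen, the genes most alike included Rtn4rl2 (r = 0.982), Smoc2 (0.954), Cck, the neuropeptide of many cortical neurons (0.952), and Stx1a (0.948). Each r here is a description over 16 mice and the highest of many, so no p is given.

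The title of the series names splicing, so the exon bins of the members were tested too. A bin is a stretch of exon shared by the same set of transcripts, and each was set against the rest of its gene. By genotype, 0 of the 9 genes were called by edgeR's exon test with the Simes method, where 1 of 14875 genes was (0.00672%), and the smallest p of any member bin was 0.193, for bin 17 of Nab1 (0.303, for bin 6 of Egr2, to 0.874, for bin 7 of Nr4a1, over the smallest p of the other genes), beside 1.05% of all bins under an unadjusted p of 0.05. By sex, 0 of the 9 were called, where 19 genes (0.128%) were. The bins tested numbered 6 in Egr1, 12 in Egr2, 5 in Egr3, 2 in Egr4 and 7 in Nr4a1. They numbered 16 in Nr4a2, 10 in Nr4a3, 15 in Nab1 and 13 in Nab2. Of all these member bins, only bins 4, 5, 18 and 19 of Nab2 passed the unadjusted level, beside 3.27% of all bins. Their edgeR unadjusted p was 0.0213, 0.0276, 0.0312 and 0.0209. Their log2 ratios to the rest of the gene were -0.40, -0.25, -0.36 and -0.51. Bins 4 and 5 adjoin, as do bins 18 and 19, so the same reads can count in both bins of a pair. Bin 19, with the smallest p, is a stretch of 7 bases in the 5′ UTR at 127103760 to 127103766 that held 14 to 41 counts per mouse. Without Sample_4806, 0 of the 9 genes were called again (0.0467% of all genes), and 4 bins of Nab2 passed the unadjusted level, as did 2.9% of all bins, with bin 19 again first (p = 0.0127). With all 16 mice, the smallest p in the other genes ran between 0.0993, for bin 12 of Nab1, and 0.852, for bin 2 of Egr4. Without Sample_4806 the same 2 bins had 0.137 and 0.856.

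The share of Nr4a1 counts that fell in its first exon bin varied with the level of the gene. Bin 1 of Nr4a1, 126 bases of 5′ UTR at chromosome 15, 101097277 to 101097402 (NCBIM37), took 7.21 ± 1.28% of the exon counts of the gene in males and 5.27 ± 0.62% in females (SD, n = 8 each; 5.30 ± 0.66% in the 7 females without Sample_4806), with 107 to 1592 counts per mouse. The exon test did not call it (log2 ratio to the rest of the gene 0.52, edgeR unadjusted p = 0.185). Its share followed the level of Nr4a1, with r = 0.893 and rho = 0.856 (permutation adjusted p = 0.0001 and 0.00045 over 5 genes with such bins), and r = 0.902 without Sample_4806. Within the sexes r was 0.874 in males and 0.461 in females (0.505 without Sample_4806), and neither passed after adjustment over the 5 genes (exact permutation adjusted p = 0.0554 and 0.435). Male Sample_4712, with the lowest Nr4a1 of the males, also had the lowest share, 4.51%. The share and the level come from the same libraries, and this relation was examined after the values were seen. The leading bins of Nr4a2, Nr4a3, Nab1 and Nab2 did not pass (r = -0.096, 0.163, 0.349 and -0.428).

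**Figure D5:**
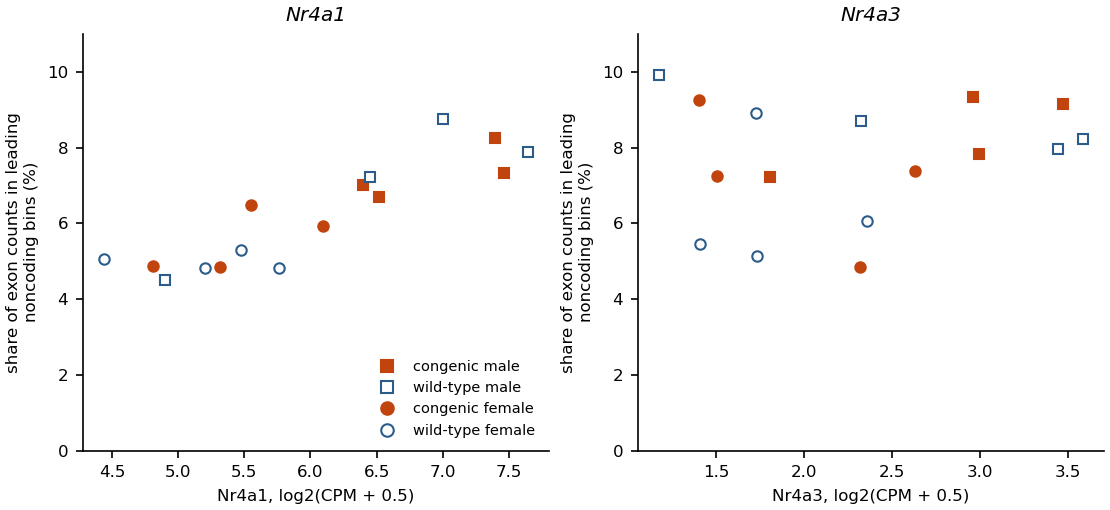
Share of a gene's exon counts that fell in its leading noncoding bins (%, axis from 0) against log2(CPM + 0.5) of the gene, for Nr4a1 on the left and Nr4a3 on the right; each point is 1 of 16 mice. The share runs between 4.51 and 8.75% for Nr4a1 and rises with its level (r = 0.893), and between 4.85 and 9.91% for Nr4a3 where the relation did not pass (r = 0.163).

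The gene model of Nab2 overlaps genes on the other strand, which bears on its exon values. It shares 1050 bases of exon with Gm16229, 151 with Tmem194 and 40 with Stat6, all on the plus strand, and 4 of its 20 bins, together 985 bases at 127101396 to 127102537, held 0 counts in all 16 mice, as did 1 more bin of a single base. That stretch lies inside the overlap with Gm16229. The level of Nab2 per kilobase was computed with these bases in its length, and the sources used here do not say whether reads were counted by strand. Egr1 shares 8 bases with Gm17507, and the other 7 genes share no exon base with another annotated gene.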

How the data were processed

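Striatal RNA of 16 mice was sequenced on 3 lanes each (48 runs). The tables hold raw counts per gene and per exon bin for each run, as deposited by the authors. The submitters' processing notes list limma 3.22.7, edgeR 3.8.6, HTSeq 0.6.1p1 and FastQC 0.10.1, and the builds mm10 and mm9, with no role for each and no aligner. The labels give the reads as 50 bp single-end in one place and 100 bp paired-end in another. Exon bins were placed by rebuilding them from GENCODE on NCBIM37, and 8 of the 9 genes, all but Egr1, gave the deposited number of bins.

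Lanes were summed per mouse, with 73.1 to 82.0 M gene counts. The same lane of different mice differed more than lanes of one mouse did, so no library was taken for a copy, and p-values measure the spread between mice. Genes kept by filterByExpr (minimum count 10, minimum total 15) were tested with edgeR 4.0.16 (quasi-likelihood, robust, TMM; R 4.3.3), with Benjamini-Hochberg adjustment over 16716 genes and a threshold of 0.05. Genotype was tested with sex in the model, sex with genotype, and their product with both. DESeq2 1.42.0 and limma 3.58.1 were alternatives. Exon bins were tested with edgeR's diffSpliceDGE and the Simes method, and correlations by 100000 permutations of log2(CPM + 0.5), or all pairings within a sex. The fits were also run on simulated counts. Those had the same spread for all genes, narrower than that of Egr1, Egr2, Egr4 and the NR4A genes. The simulation therefore does not show what could be detected for these genes. All 9 genes are named throughout, with the called genes of each pathway list or, under 3 calls, those of smallest p up to 3 by sex and by genotype, and the 5 genes of highest r with Egr1, Nr4a1 and Nab2. Members and lists were chosen with earlier results of these data known.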

Additional observations from a re-analysis of the deposited data

Results flagged for a closer look

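Nr4a2 in wild-type male Sample_4734 stood at 28.3 CPM, far from the other 7 males, which lay between 3.19 and 15.1 CPM. The gap to the nearest male was 0.526 of the range of the 8 males in CPM, and a smaller share on the log2 scale. This was 1 of 72 groups of member values examined in this way, and chance sets a sample apart in about 1 of 20 such groups. The same mouse had the highest Egr1, Egr2, Egr4, Nr4a1 and Nab2 of all 16. Its score of 12 cortical markers, 0.767, was also the highest of the males.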

How the results depend on the processing

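Main values were counts of genes, members or pairs called, the lowest r of the block, and r of Nr4a2 with the cortical score. A count was kept if it stayed within 1.5 times its main value, and a count of 0 if it stayed 0. An r was kept if it held its direction and its side of the threshold. By this rule, 113 of 124 main values under other settings and 186 of 208 with 1 mouse left out were kept. Of the values of single genes and pairs, 352 of 372 and 732 of 768 kept their direction and their side of the threshold. No member was called by genotype or for the interaction under any setting run. The count of genes called by sex, 23 with edgeR, was 259 with DESeq2, and 13 in lane 4 alone, with the cortical score as a covariate and without mice Sample_4804 and Sample_4806, a setting chosen after seeing the data. With 1 mouse left out it ran between 12 and 76, and it moved by over 1.5 times in every such fit except those without Sample_4677, Sample_4739, Sample_4676 and Sample_4732. The members called by sex, 1 with edgeR, were 5 with DESeq2, 0 in lane 4 alone and without Sample_4804 and Sample_4806, and 0 to 2 with 1 mouse left out. The genes called by genotype within females, 0 of all, ran between 0 and 17, with 17 only without Sample_4804. The genes called by exon bins were 1 by genotype, with 0 by limma diffSplice and 0 with at least 10 counts in every mouse, and 19 by sex, with 53 by limma diffSplice. The lowest r of the block of 6 genes, 0.692, was 0.535 with values centred within genotype and sex. The pairs of members past the threshold were then 15 in place of 21, by a permutation whose p runs too small for centred values. The r of Nr4a3 with Nab2 missed the threshold without Sample_4804, Sample_4671, Sample_4731, Sample_4806 or Sample_4734 (0.518 to 0.559).

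Signs turned only among log2 fold changes that passed no test. By genotype these were -0.005 for Nab1 and -0.002 for Nab2 in lane 4 alone and -0.004 for Egr3 without Sample_4804 and Sample_4806. For the interaction they were 0.023 for Nr4a3 by limma-voom, 0.002 for Nab2 in lane 3 alone, and -0.026 in lane 5 alone and -0.034 with the cortical score for Nr4a1. By sex, Nr4a2 was 0.363 with the cortical score. With 1 mouse left out, the genotype values ran between -0.029 and 0.059 for Egr3, -0.027 and 0.296 for Nr4a3, and -0.011 and 0.042 for Nab2. The interaction values ran between -0.31 and 0.461 for Nr4a1, -0.555 and 0.115 for Nr4a3, and -0.096 and 0.034 for Nab2. The cause of these changes was not tested. No paired analysis was possible because the mice carry numbers of their own that the genotypes do not share.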
